A study of Mus musculus with 20 samples.

Results

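RNA of 50 genes whose products license, fire and copy DNA replication origins was examined in single 8-cell (8C) mouse embryos. The genes were taken by symbol from a list of origin and fork factors, and all 50 were found among the 34937 Ensembl genes counted. The data were 10 Ehmt2Mat embryos, which lacked maternal G9a (encoded by Ehmt2), and 9 Ehmt2Cntr embryos, all morphologically normal, of mixed background and collected at E2.5. Mothers of both groups carried Zp3-Cre, which acts in the growing oocyte, and were Ehmt2F/- for Ehmt2Mat and Ehmt2F/+ for Ehmt2Cntr, so that control mothers also held a conditional allele. Of the Ehmt2Mat embryos, 5 had the zygotic genotype -/- and 5 had +/-, and of the controls 3 had +/- and 6 had +/+. A labelled control embryo 4 was not analysed here. Each library came from 1 whole embryo, so fewer cells and less RNA per cell cannot be told apart, nor can RNA stored by the oocyte and RNA made by the embryo.

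Replication starts where the origin recognition complex (ORC) sits on DNA and, with CDC6 and CDT1, loads the MCM helicase as an inactive ring. CDC45 and the GINS complex then join the ring and activate it, after which polymerase alpha-primase starts the strands, and the clamp PCNA, loaded by replication factor C (RFC), holds polymerases delta and epsilon. Cleavage-stage embryos divide without growth, on factors that come partly from the oocyte.

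Depth did not separate the groups. Total counts were between 12985149 and 30053248 in controls and between 8231646 and 30602434 in Ehmt2Mat embryos (exact two-sided permutation test on log2 totals, p = 0.367). Between 0.0911 and 0.363 CPM (counts scaled to a common library size with TMM factors) correspond to 3 counts, depending on the embryo, and such limits cover counting error only. No pair of embryos had identical counts. Nothing in the labels names the litters, so p-values measure the spread between these embryos. The tests treat embryos as independent, and which of them shared a mother is not known. Effects of mother or litter therefore cannot be told apart from maternal genotype. Summed markers of the 8C embryo (10 genes) were between 2259 and 3681 CPM in controls and between 3180 and 4197 CPM in mutants. The medians of these sums were 3032.5 and 3637.4 CPM. Dppa3 alone had medians of 1764.2 CPM in controls and 2411.1 CPM in mutants, so the sums rest largely on 1 gene. Of the 9 of these markers that could be tested, Tfap2c and Tead4 rose and Klf5 and Khdc3 fell. Oocyte and polar body markers summed to between 51.7 and 333 CPM in controls and between 121 and 357 CPM in mutants, and 1 of the 9 tested, Oosp1, rose. Markers of the earlier cleavage burst of transcription were at no more than 21.6 CPM in any embryo. Cumulus and granulosa markers summed to between 0 and 10.5 CPM in controls and between 0 and 93.2 CPM in mutants, with Amh, Foxl2, Fshr, Has2 and Ptx3 at 0 in all 19 libraries. The highest sum was in Ehmt2Mat embryo 3. The part of these markers in the results was not tested.

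Ehmt2 itself was at 66.6 to 253 CPM in controls and 58.7 to 159 CPM in mutants (log2 fold change -0.47, SE 0.237, adjusted p = 0.233). Counts over the whole gene include exons outside the deleted part and are therefore no check of the deletion. Its partner Ehmt1 had medians of 73.8 CPM in controls and 77.9 CPM in mutants (log2 fold change -0.0017, adjusted p = 0.998).

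A few replication factors differed between the groups, in both directions. Of the 50 genes, all of which passed the filter on low counts, 5 rose and 2 fell (edgeR quasi-likelihood test, Benjamini-Hochberg adjusted over 11754 genes, threshold 0.05). Among all genes tested 9.35% passed, 4.37% upwards and 4.98% downwards, so the number of factors that fell was near the background. The genes that rose were Orc1 and Orc6 of ORC, the loader Cdc6, the helicase activator Cdc45 and Poldip3, a polymerase delta interacting protein. Both genes that fell, Rfc1 and Rfc5, encode subunits of the clamp loader. In controls with the zygotic genotype +/- against mutants with the same genotype (3 and 5 embryos), none of the 7 passed, and 1 of 13401 genes tested did. All 7 kept their direction there, with log2 fold changes of 1.33 for Orc1, 1.08 for Orc6, 0.75 for Cdc6, 0.51 for Cdc45, 0.93 for Poldip3, -0.45 for Rfc1 and -1.11 for Rfc5.

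**Figure D1:**
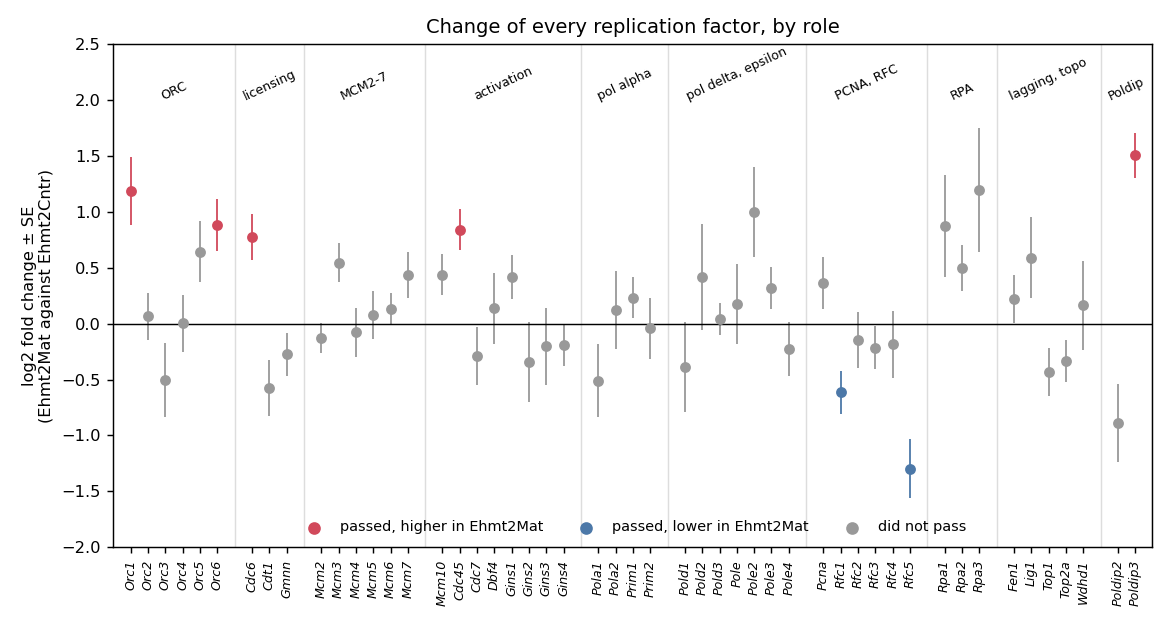
Log2 fold change of each of the 50 genes in Ehmt2Mat (n = 10) against Ehmt2Cntr (n = 9) embryos, with bars of 1 SE from the edgeR fit, grouped by role along the x axis. Coloured points are the 5 genes that rose and the 2 that fell, and grey points did not pass the test.

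Over all 50 genes the log2 fold changes ran from -1.296 to 1.504, with a median of 0.10, beside -0.04 over all genes tested. Of the 50, 29 had a positive value, beside 47.6% of all genes tested. Before adjustment, 17 of the 50 had p under 0.05, beside 23.3% of all genes tested. The 10 of these that did not pass after adjustment were Orc5, Mcm3, Mcm7, Mcm10, Gins1, Pole2, Rpa2 and Rpa3, with positive log2 fold changes of 0.42 to 1.19, and Cdt1 and Poldip2, with -0.58 and -0.89.

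DNA upstream of the RefSeq start of the 4 rising genes that act at the origin is shown here, because these genes moved the same way. Sequences are from RefSeq (GRCm38.p6), run 5′ to 3′ towards the start, and are printed for at most 130 bases. The Orc1, Orc6 and Cdc45 stretches end at or next to the start. The 30 bases shown for Cdc6 lie farther upstream, around its word at position -138 from the RefSeq start. They are nevertheless within the Ensembl gene counted here, which begins at 98907801. The Orc1 and Cdc45 stretches also reach into the Ensembl gene at their ends. Capitals in the printed stretches mark short words found by a search. Words of 3 kinds were searched on both strands over the 250 bases before each start. These were the E2F-type words TTTCCCGC, TTTCGCGC, TTTGCCGC and TTTGGCGC, the CCAAT word (CCAAT) and the CHR word (TTTGAA), and no word contains another.
Orc1, chr4:108579324-108579452, plus strand: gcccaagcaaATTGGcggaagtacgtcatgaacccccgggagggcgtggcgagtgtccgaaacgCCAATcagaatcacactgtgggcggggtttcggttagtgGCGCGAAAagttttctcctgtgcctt
Orc6, chr8:85299502-85299631, plus strand: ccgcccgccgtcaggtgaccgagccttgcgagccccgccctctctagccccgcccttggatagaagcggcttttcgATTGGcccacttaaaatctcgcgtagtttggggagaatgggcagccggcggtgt
Cdc6, chr11:98908002-98908031, plus strand: gccggtggagaGCGGGAAAtcgcctggggt
Cdc45, chr16:18811973-18812102, minus strand: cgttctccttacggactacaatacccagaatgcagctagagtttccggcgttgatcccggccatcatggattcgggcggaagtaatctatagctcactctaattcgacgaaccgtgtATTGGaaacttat

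An E2F-type word stood in the windows of Orc1 and Cdc6 and in none of the 250 bases before Orc6, Cdc45, Rfc1 or Rfc5. A CCAAT word stood before Orc1, Orc6, Cdc45 and Rfc1. Cdc45 also had the CHR word, at position -240 and so outside the bases printed. RefSeq windows were found for 41 of the 50 genes. Of their 51 windows, 21.6% held an E2F-type word, beside 1.86% of all 32851 windows. The CCAAT word was in 45.1% of these windows and 33.8% of all, and the CHR word in 13.7% and 16%. Genes with an E2F-type word included Mcm5, Mcm6, Mcm7, Orc3, Pola1, Pole4 and Rfc3, none of which passed the test. These matches are descriptions of letters and not evidence of binding.

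ORC has 6 subunits and marks origins on DNA. Orc1 (chr 4, 108579423 to 108614833) was at 20.9, 53.2 and 61.9 CPM in the lowest, median and highest control, and at 36.5, 88.4 and 223 CPM in the corresponding mutants. Embryos of the groups overlapped, with 8 of 10 mutants above every control and mutants 2 and 3 highest. The rise was 2.27-fold (log2 fold change 1.18, SE 0.302, adjusted p = 0.014). An antisense gene, Gm12743, shares 10.8% of the exon bases of Orc1, and its count rose too (log2 fold change 1.46, adjusted p = 0.0371). Counting did not use strand, so reads on the shared bases cannot be told apart.

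Orc6, a second subunit that passed, was at 42.5, 133 and 235 CPM in the lowest, median and highest control. In mutants it was at 180, 301 and 362 CPM, and 9 of 10 lay above every control. The lowest control, embryo 7, stood far below the next at 107 CPM. Orc6 rose 1.84-fold (log2 fold change 0.88, SE 0.236, adjusted p = 0.019), and without control 7 the log2 fold change was 0.75 (adjusted p = 0.0169). The other ORC genes did not pass, with log2 fold changes of -0.50 for Orc3, 0.0026 for Orc4 (negative with sex as a covariate or at least 10 counts in every embryo), 0.06 for Orc2 and 0.64 for Orc5. Orc3 was at 12.4 to 85.8 CPM in controls and 14.5 to 69.1 CPM in mutants, and no mutant was above the control median of 73.8 CPM. Orc2 shares 29.8% of its exon bases with Nif3l1 on the other strand, so its level is uncertain.

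Loading of the helicase depends on CDC6 and CDT1, and geminin (Gmnn) inhibits CDT1. Cdc6 was at 76.55, 122 and 230.3 CPM in the lowest, median and highest control and at 133, 229.5 and 349.8 CPM in mutants. All 10 mutants were above the control median and 5 were above every control. Cdc6 rose 1.71-fold (log2 fold change 0.77, SE 0.206, adjusted p = 0.019). Cdt1 was at 406, 636 and 984 CPM in the lowest, median and highest control and 184.5, 389 and 733 CPM in mutants, with 5 mutants below every control, and did not pass (log2 fold change -0.58, SE 0.253, adjusted p = 0.164). Gmnn did not pass either (log2 fold change -0.28, adjusted p = 0.421).

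**Figure D2:**
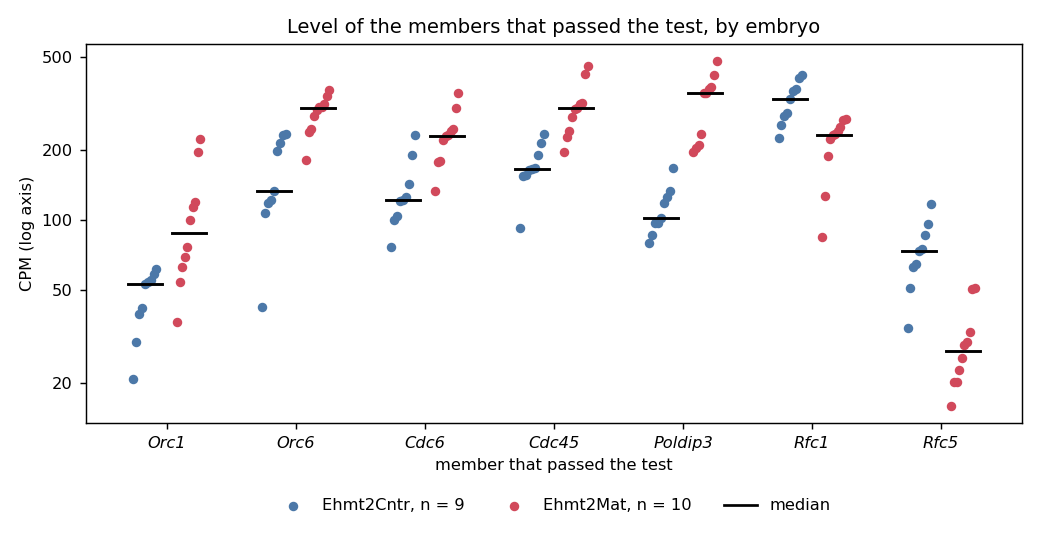
CPM, on a log axis, of the 7 genes that passed the test in each of 9 Ehmt2Cntr and 10 Ehmt2Mat embryos, ordered by level within a group, with a bar at the median. The groups stand apart for Poldip3, whose highest control was at 167 CPM and lowest mutant at 196 CPM, and overlap for the other 6.

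None of the 6 subunits of the MCM2-7 ring passed the edgeR test, and 2, Mcm3 and Mcm7, had unadjusted p under 0.05. Mcm3 came closest, at 80.6, 139 and 197 CPM in the lowest, median and highest control and 136, 197.5 and 301 CPM in mutants. Its log2 fold change was 0.55 (SE 0.176, adjusted p = 0.051), and 6 mutants lay above every control. It passed in 9 of 13 other settings of the fit, DESeq2 among them (adjusted p = 0.0159), and without control 2, control 5, mutant 7 or mutant 10 (adjusted p = 0.0327 to 0.0448). Mcm6 had the highest level per length of the ring (81.4 ± 13.2 RPKM, CPM per kilobase of exon, SD, n = 9). Its values of 289, 349 and 459 CPM in controls and 298, 413 and 593 CPM in mutants overlapped (log2 fold change 0.13, adjusted p = 0.653). The others had log2 fold changes between -0.13 for Mcm2 and 0.43 for Mcm7. Mcm7 reads are uncertain, because 23.3% of its 50-base windows also occur in other genes.

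Ring activation needs CDC45, the GINS complex, MCM10 and the kinase of CDC7 and DBF4. Cdc45 was at 92.55, 165 and 234 CPM in the lowest, median and highest control and at 196.5, 300.6 and 458 CPM in mutants. All 10 mutants were above the control median and 8 were above every control, with control 7 again lowest. Cdc45 rose 1.79-fold (log2 fold change 0.84, SE 0.183, adjusted p = 0.0052), and without control 7 the log2 fold change was 0.76 (adjusted p = 0.0087). Ufd1, which shares 9.28% of the exon bases of Cdc45, did not pass (log2 fold change 0.30, adjusted p = 0.29). The partners of CDC45 at the fork did not pass. Gins1 had a log2 fold change of 0.42, Gins2 of -0.34, Gins3 of -0.20 and Gins4 of -0.19. Gins4 had the highest level per length of this role (160.1 ± 58.5 RPKM, SD, n = 9) and was at 102 to 383 CPM in controls and 156 to 264.5 CPM in mutants. Most of the exon bases of Gins2 (67.3%) lie in Gse1, so its count is uncertain. Mcm10, Cdc7 and Dbf4 had log2 fold changes of 0.44, -0.29 and 0.14.

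No gene of the polymerases or of the single-strand binding protein RPA passed with edgeR or DESeq2. Of polymerase alpha-primase, which lays the first primer, Pola1 was at 26.3, 42.9 and 62.0 CPM in the lowest, median and highest control and 8.37, 28.5 and 80.1 CPM in mutants (log2 fold change -0.51, adjusted p = 0.369). Mutants thus held both the lowest and the highest embryo. Pola1 lies on the X chromosome. Y-linked genes were at 0.791 CPM in the highest mutant, embryo 9, and at 208 CPM in the lowest, embryo 7. In the highest and lowest controls, embryos 7 and 1, they were at 86.2 and 101 CPM. By Y-linked genes above 1 CPM, 5 of the 9 controls and 9 of the 10 mutants were male. The part of sex in this spread was not tested. Prim1, the catalytic primase subunit, was at 37.3, 56.4 and 79.2 CPM in controls and 47.7, 65.7 and 84.1 CPM in mutants (log2 fold change 0.23, adjusted p = 0.504). Among the subunits of polymerases delta and epsilon, log2 fold changes ran from -0.39 for Pold1 to 1.00 for Pole2. Pole2 was low in both groups, at 2.83, 8.99 and 25.7 CPM in controls and 15.6, 20.3 and 60.6 CPM in mutants, mutant 3 being highest (SE 0.404, adjusted p = 0.125). Pole4, highest per length of this role at 117.3 ± 48.4 RPKM (SD, n = 9), was at 146, 296 and 522 CPM in controls and 157, 219 and 428 CPM in mutants (log2 fold change -0.23, adjusted p = 0.635). All 3 RPA genes, which coat single-stranded DNA, had positive values. Rpa2 was at 103 to 327 CPM in controls and 188 to 483 CPM in mutants, all 10 above the control median (log2 fold change 0.50, SE 0.206, adjusted p = 0.136). Rpa1 and Rpa3 were much lower, with control medians of 8.52 and 2.55 CPM, and had log2 fold changes of 0.88 and 1.19 with SE of 0.456 and 0.555.

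The 2 of the 50 genes that fell, a number near the background of 4.98% of all genes tested, were both of the clamp loader. Rfc5 (chr 5, 117378103 to 117389047), a small subunit, was at 34.5, 74.0 and 117 CPM in the lowest, median and highest control and at 16.01, 27.4 and 51.4 CPM in mutants. No mutant reached the control median and 8 were below every control. Rfc5 fell 2.46-fold (log2 fold change -1.30, SE 0.26, adjusted p = 0.0029). Wsb2, which shares 10.7% of the exon bases of Rfc5, did not pass (log2 fold change -0.81, SE 0.348, adjusted p = 0.152). Rfc1 (chr 5, 65261850 to 65335670), the large subunit, was at 225, 329.5 and 418 CPM in the lowest, median and highest control and at 84.9, 232 and 271 CPM in mutants, all 10 below the control median.

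Rfc1 fell 1.53-fold (log2 fold change -0.61, SE 0.194, adjusted p = 0.046), close to the threshold. The call was lost when controls 2, 5, 6, 7 or 8 or mutants 1, 2, 3, 4, 8 or 9 were left out singly (adjusted p = 0.0513 to 0.086), and mutant 3, the lowest, is the embryo with the most cumulus marker reads. Without mutant 3, 6 of the 50 genes passed, the other six being as before. Rfc2, Rfc3 and Rfc4 had log2 fold changes between -0.21 and -0.15, and Pcna, the clamp they load, had 0.36 (adjusted p = 0.382). Both Rfc1 and Rfc5 lie on chromosome 5, as do 9 of the 50 genes. Of 807 genes tested on chromosome 5, 34 rose and 40 fell.

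Poldip3 (chr 15, 83125978 to 83149384), known both as a partner of polymerase delta and as a protein of the exon junction, changed most. It was at 79.6, 102 and 167 CPM in the lowest, median and highest control and at 196, 349.8 and 479 CPM in mutants. Every mutant was above every control, which held for no other of the 50 genes. Groups without overlap, in either direction, were found for 0.519% of all genes tested, and with mutants higher for 0.34%. Poldip3 rose 2.84-fold (log2 fold change 1.504, SE 0.2, adjusted p = 0.00018). Mutants with the genotype -/- were at 349 to 417 CPM and those with +/- at 196 to 479 CPM, a difference that did not pass (log2 fold change 0.49, SE 0.258, adjusted p = 0.9997). In controls, +/- embryos averaged 137 CPM and +/+ embryos 99.3 CPM (n = 3 and 6), which did not pass either (log2 fold change 0.48, SE 0.278, adjusted p = 0.9998). Because no mutant was +/+ and no control -/-, maternal and zygotic genotype cannot be fully told apart in the 2.84-fold rise. Poldip2, the other gene named for this interaction, had medians of 18.7 and 15.4 CPM and a log2 fold change of -0.89 (SE 0.348, adjusted p = 0.113).

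Genes of the lagging strand and topoisomerases did not pass. Top1, which relieves twist ahead of the fork, was at 202, 317 and 483 CPM in controls and 130.2, 243.5 and 429 CPM in mutants (log2 fold change -0.43, SE 0.213, adjusted p = 0.225), with 4 mutants below every control. Top2a, which unlinks sister strands, was at 202, 369 and 416.5 CPM in controls and 182, 240.0 and 361 CPM in mutants, and no mutant was above the control median (log2 fold change -0.33, adjusted p = 0.299). Lig1, Fen1 and Wdhd1 had log2 fold changes of 0.59, 0.22 and 0.16. Most of the exon bases of Fen1 (78.8%) lie in Gm10143, so its count is uncertain.

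**Figure D3:**
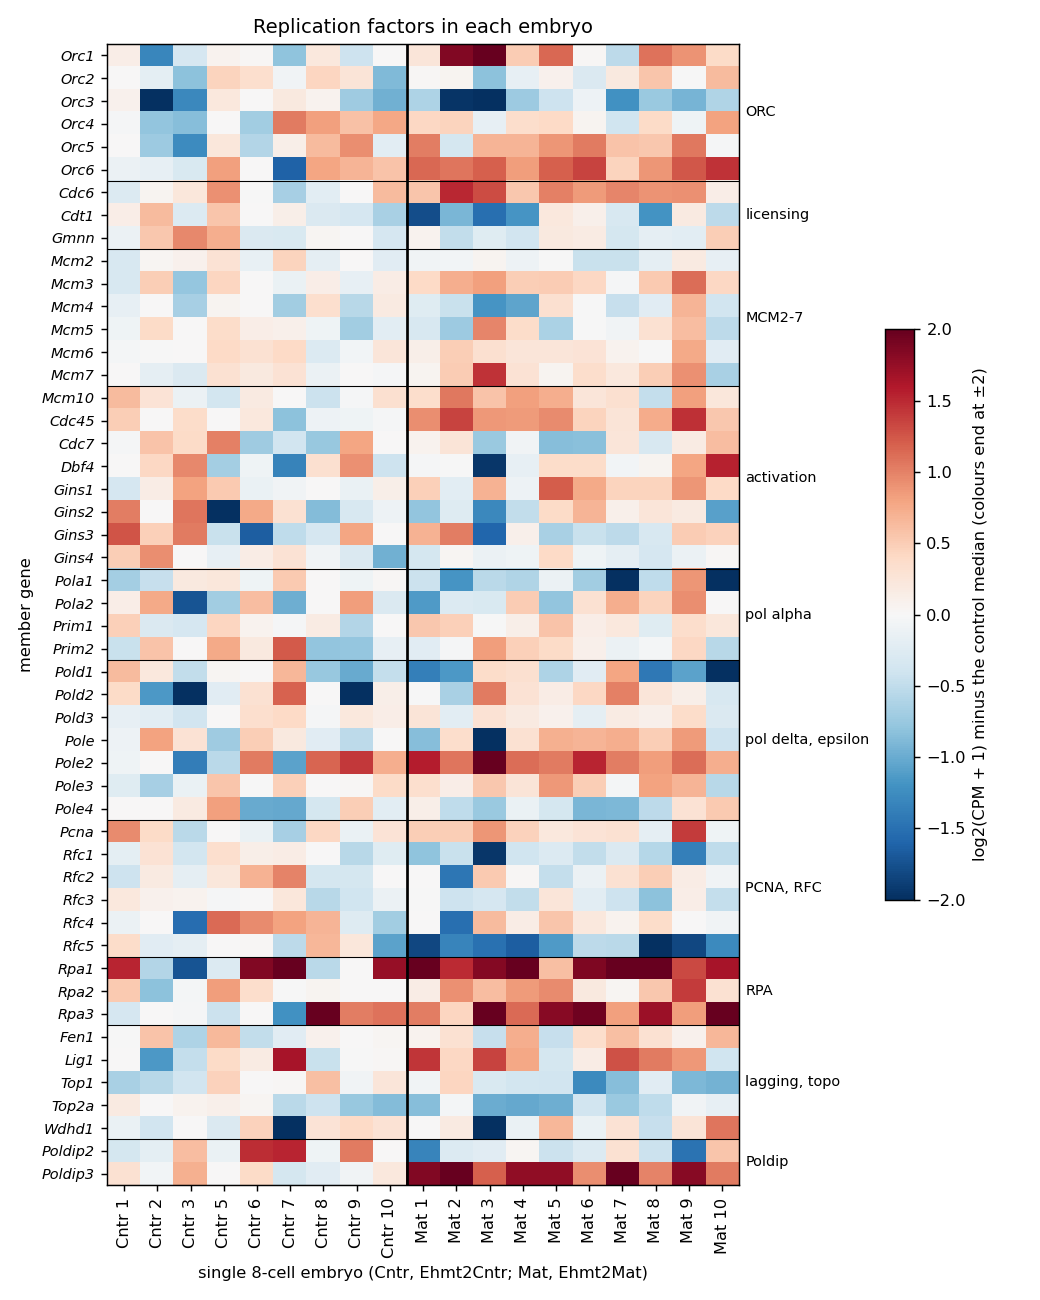
Each row is 1 of the 50 genes, grouped by role, and each column 1 embryo, with 9 Ehmt2Cntr on the left and 10 Ehmt2Mat on the right. Colour is log2(CPM + 1) minus the control median of the gene, ending at ±2. Poldip3, Cdc45 and Orc6 are raised along the mutant columns and Rfc5 is lowered, while most rows are mixed in both groups.

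The 50 genes varied between embryos within a group, and how far they moved together was not tested. The median of the 50 genes in an embryo, as log2(CPM + 1) minus the control median, lay between -0.15 and 0.22 in controls and between -0.01 and 0.45 in mutants, with mutant 9 highest. The SD of log2(CPM + 1) between embryos had a median over the genes of 0.50 in controls and 0.51 in mutants, and 21 genes varied more in mutants. Control 7 was the lowest control for 10 genes and the highest for 13. Mutant 3 was the lowest mutant for 10 genes and the highest for 8. Other embryos leaned to 1 side. Control 5 was the lowest control for 2 genes and the highest for 12, and control 10 was lowest for 6 and highest for 0. Mutant 9 was the lowest mutant for 1 gene and the highest for 12, and mutant 7 was lowest for 7 and highest for 1.

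Because subunits of 1 complex act together, the ratio of each pair within a complex was also compared between groups. The licensing genes Cdc6, Cdt1 and Gmnn, which are loaders and an inhibitor rather than subunits of 1 complex, were treated in the same way. They gave 3 of the pairs, of which 2 passed. Ratios were differences of log2(CPM + 1) within an embryo, tested by exact two-sided permutation over all 92378 splits, with adjustment over the 68 pairs. Of the 68 pairs, 13 passed, and 8 of these hold a gene that passed the test above and so repeat its change. The 5 others were Orc3 with Orc5, Mcm3 with each of Mcm2, Mcm4 and Mcm6, and Pold1 with Pold2. The 3 pairs with Mcm3 share that gene, whose own change was close to the threshold, and are not separate results. Pairs of other genes were not tested, so the share that would pass outside these sets of genes is not known. Among all genes tested, 23.3% had unadjusted p under 0.05 with edgeR. The 13 pairs, and the single ratios given here, therefore cannot be read as particular to these sets of genes. In the 9 controls the log2 ratio of Mcm2 to Mcm3 averaged 1.47 (SD 0.44), against 0.79 (SD 0.17) among the 10 mutants (exact permutation p = 2.2e-05, adjusted p = 0.0015). Neither gene passed alone. The ratio of Pold1 to Pold2 fell by 1.49 on the log2 scale (exact permutation p = 0.0039, adjusted p = 0.029), and Pold2 was at 0.542 CPM in control 3.

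Cdc6 against Cdt1 shifted most among licensing genes. The 9 controls averaged a log2 ratio of Cdc6 to Cdt1 of -2.29 (SD 0.63), against -0.815 (SD 0.82) among the 10 mutants (exact permutation p = 0.00061, adjusted p = 0.021). Cdc6 against Gmnn rose by 1.02 (exact permutation p = 0.002, adjusted p = 0.029). Orc6 passed against Orc2, Orc3 and Orc4, and Orc1 against Orc3. Rfc5 passed against Rfc3 and Rfc4. No pair passed within GINS, polymerase alpha-primase, polymerase epsilon or RPA, nor did Cdc7 against Dbf4.

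**Figure D4:**
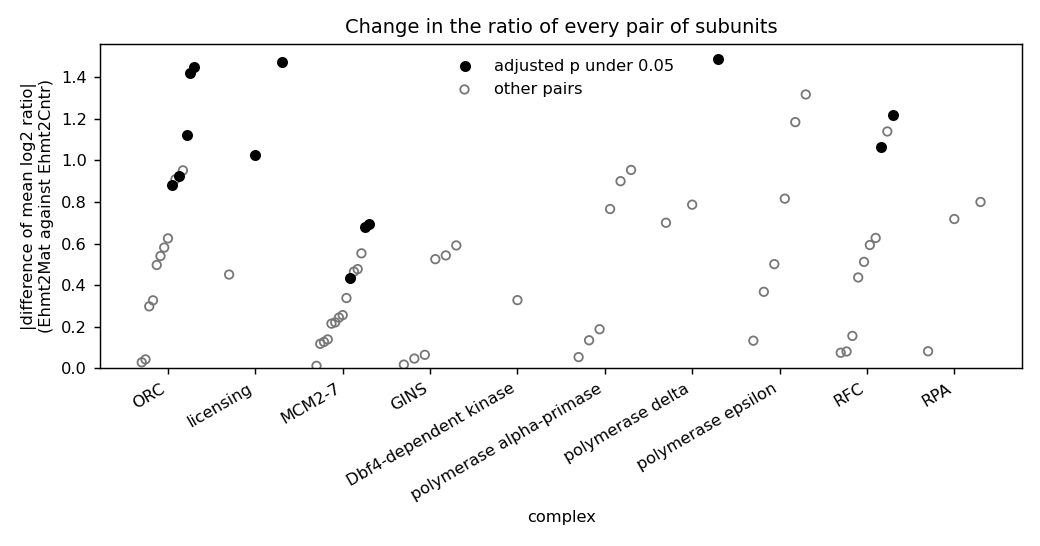
Size of the difference between groups in the mean log2 ratio of each of 68 pairs of subunits, by complex, ordered by size within a complex. Filled points are the 13 pairs with adjusted p under 0.05, of which 5 lie in ORC and 3 in MCM2-7.

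Per exon length, Cdt1 and Gmnn had the highest control means of the 50 genes. Cdt1 was at 299.3 ± 90.1 RPKM and Gmnn at 269 ± 97.9 RPKM (SD, n = 9), which did not differ beyond their spread. The lowest were Rpa3, Rpa1 and Pole at 3.80 ± 3.80, 3.25 ± 2.80 and 3.18 ± 1.10 RPKM (SD, n = 9), again within their spread. The median of the 50 genes was 27.6 RPKM, beside 6.05 RPKM over all genes tested, and 44 of the 50 lay above the latter. The third licensing gene, Cdc6, was at 25.8 ± 9.10 RPKM in controls (SD, n = 9), below that median. Orc6 was at 94.1 ± 40.1 RPKM in controls and Orc1 at 13.3 ± 4.01 RPKM (SD, n = 9). The libraries favour the 3′ end of transcripts, so levels per length understate long transcripts to an unknown degree.

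**Figure D5:**
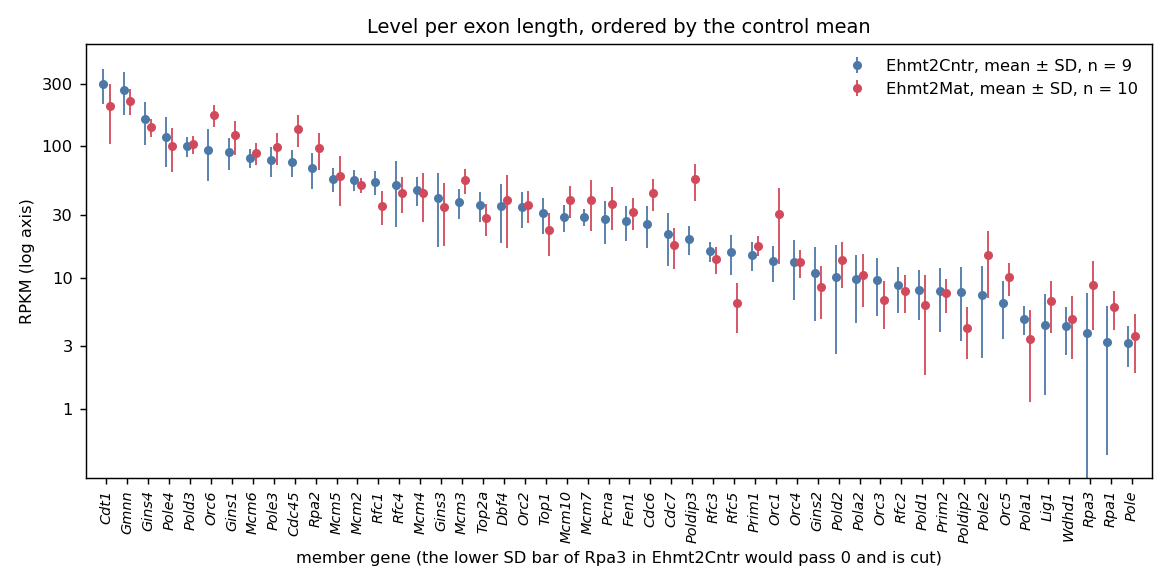
RPKM, on a log axis, of the 50 genes in Ehmt2Cntr (n = 9) and Ehmt2Mat (n = 10) embryos, as mean ± SD, ordered by the control mean. Cdt1 and Gmnn stand at the left at 299.3 and 269 RPKM, and Pole at the right at 3.18 RPKM.

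The zygotic copy of Ehmt2 was compared within each group. Between -/- and +/- Ehmt2Mat embryos (5 and 5), 0 of the 50 genes passed with edgeR, 0 had unadjusted p under 0.05 and 0 passed with DESeq2. Over all genes, 0% passed with edgeR, 2.21% had unadjusted p under 0.05 and 0.103% passed with DESeq2. Between +/- and +/+ controls (3 and 6), 0 passed with edgeR or DESeq2 and 2 had unadjusted p under 0.05 with edgeR, beside 4.52% of all genes. Over all genes 0% passed with edgeR and 0.822% with DESeq2. The 2 genes were Rfc4, at 38.8 ± 18 CPM in +/- and 96.8 ± 33.4 CPM in +/+ controls (SD, n = 3 and 6), and Orc2, at 91.5 ± 33.8 and 152 ± 26.7 CPM (SD, n = 3 and 6).

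Among other genes of the pathway, which included helicase regulators, chromatin assembly factors and the fork protection complex, none of 30 passed with edgeR. Of the 30, 8 (26.7%) had unadjusted p under 0.05, near the 23.3% of all genes tested. None of 10 replication checkpoint genes passed with edgeR, and none had unadjusted p under 0.05. Of the E2F and retinoblastoma family, which controls transcription of many replication genes, 12 of 13 could be tested. Of these, 2 had positive log2 fold changes, beside 47.6% of all genes tested, and the median was -0.78, beside -0.04. Some values rest on few counts. E2f2, E2f7, E2f8 and Rbl1 had 0 counts in at least 1 control, with SE of 0.845 to 1.144, and E2f7 alone of these was positive. With edgeR 1 of the 12 passed, beside 9.35% of all genes tested. E2f6, a repressor of this family, was the one that passed. With edgeR 1 of the 52 genes tested in these lists together passed, a share below the 9.35% of all genes tested. DESeq2 called 5 of 53, a share below the 12.7% it called of all genes. E2f6 was at 12.6, 37.1 and 54.2 CPM in the lowest, median and highest control and at 2.05, 9.48 and 31.7 CPM in mutants (log2 fold change -1.499, SE 0.431, adjusted p = 0.029). That call was lost without control 1, control 8 or mutant 4 (adjusted p = 0.0508 to 0.0519).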

How the data were processed

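Single 8C embryos were lysed whole, cDNA was amplified with a bias to the 3′ end, and libraries were read as single ends of 50 bases. The authors deposited raw counts per Ensembl gene without normalization. The file headers record featureCounts 1.5.0 on exons of Ensembl release 82 (GRCm38), with an overlap of at least 10 bases, reads counted for each gene overlapped, multi-mapping reads kept and no strand. The submitters' processing notes also name TopHat2 and DESeq2, and the methods name SeqMonk. The aligner behind these counts is not given in the sources used here.

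From the deposited counts, edgeR 4.0.16 (R 4.3.3) was run with its filter on low counts, TMM normalization and the quasi-likelihood test, Benjamini-Hochberg adjusted over all genes tested, threshold 0.05, without covariates. The 10 Ehmt2Mat embryos were compared with 9 Ehmt2Cntr embryos, and zygotic genotypes within each group. Exact permutation tests used scipy 1.17.1. The genes and lists were chosen with earlier results of these data known. Values are given in full for genes that passed and, per role, for the gene with the smallest p and the highest control level per length, and other genes were named after their values were seen. Comparisons of subunit and licensing pairs, the promoter word search, overlapping genes, and a limit of 10 CPM in calling males, were added after seeing the data.

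The comparison was repeated with 2 other normalizations (RLE, upper quartile), in DESeq2 1.42.0, unfiltered or keeping genes with at least 10 counts in every embryo, with a robust fit, with embryo numbers entered as a replicate block, without the trend on exon length, adjusting for sex (male where Y-linked genes exceeded 1 CPM), on thinned counts, within the +/- genotype and without each embryo. The scripts were tested on simulated data. Total counts were between 8231646 and 30602434 per embryo.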

Additional observations from a re-analysis of the deposited data

Results flagged for a closer look

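In each group the lowest and highest embryo of each of the 50 genes was compared with its neighbours, and 11 of 100 such groups held an embryo far from the others. For independent, normally distributed values such a check marks about 1 in 20 groups by chance, and these groups share the same 19 embryos. In control 7, Orc6 was at 42.54 CPM (next 107.3), Cdc45 at 92.55 CPM (next 154.3) and Wdhd1 at 4.385 CPM (next 23.9). In mutant 3, the library with the lowest total count (8231646), Dbf4 was at 69.79 CPM (next 244.1), Pole at 2.665 CPM (next 17.98) and Wdhd1 at 2.302 CPM (next 22.75), while Pole2 was highest at 60.58 CPM (next 28.64). In mutant 2, Rfc2 was at 17.38 CPM (next 34.81) and Rfc4 at 21.12 CPM (next 59.23). Pold1 was at 2.625 CPM in mutant 10 (next 14.27), and Gins4 was highest in mutant 5 at 264.5 CPM (next 205.8).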

How the results depend on the processing

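Of the 50 genes, 7 passed in the comparison as reported, 6 to 8 with 1 embryo left out, 6 to 8 under 12 other settings and 0 with the +/- genotype alone (5 against 3 embryos). Orc6, Cdc6, Cdc45, Poldip3 and Rfc5 passed under all settings other than the last. Rfc1 was lost without a filter on low counts (adjusted p = 0.0592) and with the exon length trend removed (adjusted p = 0.0648). Over all genes, 1099 passed, with 2019 in DESeq2, 1 with +/- alone and 884 to 1262 with 1 embryo left out. Of the other pathway genes, 1 of 52 passed, with 5 of 53 in DESeq2, 4 of 41 at 10 counts in every embryo, 2 with the length trend removed, 2 with sex as a covariate, 0 with +/- alone and 0 to 3 with 1 embryo left out. The genes whose groups did not overlap numbered 1 to 2 with 1 embryo left out, Orc6 being the second without mutant 7. The subunit and licensing pairs that passed numbered 8 to 14 with 1 embryo left out (8 without control 9) and 13 with a pseudocount of 5.

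Embryo numbers did not pair the samples (mean r of same-number pairs 0.029, range -0.11 to 0.12, and 1 control correlated best with its own number). With the replicate block 6 of the 50 genes passed, Orc1 being lost (adjusted p = 0.0795), as did 693 genes in all. With the block and the length trend removed, 679 genes and 2 of the other pathway genes passed.

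Several log2 fold changes changed sign, from values as far from 0 as 0.36 for Pcna and -0.23 for Pole4. Orc4 was -0.014 at 10 counts, -0.038 with sex and -0.013 with sex called at 10 CPM. Under the block, alone and with the length trend removed, Mcm5 was -0.040 and -0.039 and Prim2 0.025 and 0.074, and Pole was -0.005 with the block alone. Prim2 was 0.013 with the length trend removed and 0.013 in thinned counts, and Pole4 was 0.062 with sex. With +/- alone, Prim2 was 0.310, Pole -0.049, Pcna -0.036, Rfc2 0.199, Rfc4 0.752 and Wdhd1 -0.089. Ehmt1 was 0.020 with upper quartile, 0.022 without a filter, 0.013 with block and length, 0.075 with length, 0.141 with sex and 0.093 with sex at 10 CPM. With 1 embryo left out, Orc2 ran from -0.018 to 0.136, Orc4 from -0.099 to 0.137, Mcm5 from -0.065 to 0.147, Dbf4 from -0.108 to 0.262, Pola2 from -0.012 to 0.265, Prim2 from -0.141 to 0.157, Pold3 from -0.008 to 0.088, Rfc2 from -0.217 to 0.003, Wdhd1 from -0.006 to 0.305 and Ehmt1 from -0.109 to 0.086. The causes were not tested. Genes of a few CPM, such as Rpa3, rest on few counts in the shallower libraries.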
